A study of Homo sapiens with 12 samples.

Results

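The genes described here are 39 members of 3 connected DNA repair systems: homologous recombination with its damage kinases, the Fanconi anemia pathway, and mismatch repair. They were picked by gene symbol from both expression tables of the study, which list 30703 genes for KYSE150 and 30106 for KYSE410, and all 39 were found in both. The 2 lines are wild-type human esophageal squamous carcinoma lines, grown at 21% oxygen (normoxia) or at 0.5% oxygen (hypoxia). The labels give 48 h for hypoxia and a time point of 0 for normoxia; by the design text, both oxygen levels were held equally long. Each of the 4 groups had 3 libraries, 12 in all, made from poly(A)-selected RNA. The labels do not say whether the replicates were separate cultures, and p-values here reflect only how far libraries of a group spread, which may be technical. The comparison in each line asks which repair mRNAs differ between low and ambient oxygen.

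Homologous recombination repairs broken or collapsed replication forks by copying the sister chromatid: nucleases trim the break, BRCA1 and BRCA2 with their partners load a recombinase on the single strand, and helicases resolve the joint. The Fanconi pathway recognises DNA strands that are linked to each other, and a core ubiquitin ligase marks FANCD2 and FANCI to start their removal. Mismatch repair reads newly made DNA, and MutS proteins recognise mispaired bases while MutL proteins cut the new strand for resynthesis. Reduced transcription of several recombination and mismatch repair genes in hypoxic tumour cells, with repressive E2F complexes at their promoters, is a textbook description of this response.

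All values are FPKM as deposited (fragments per kilobase of transcript, scaled to the fragments sequenced), which are corrected for length but carry no read depth, so counting error is unknown. Changes are differences of log2(FPKM + 1), which understate the change of low genes, and a gene is called at an adjusted p under 0.05 in limma. The oxygen response itself was large: 14 of 15 hypoxia marker genes rose in KYSE150 and 12 of 13 tested in KYSE410. Squamous epithelium markers with a mean of at least 1 FPKM numbered 3 of 9 in KYSE150, where KRT5, KRT14 and TP63 were not among them, and 8 of 9 in KYSE410. Endothelial markers summed to at most 0.143 FPKM in any library, and CD68 was the only leukocyte marker at 1 FPKM or more. Of 8 fibroblast markers, COL1A1 (5.89 ± 0.242 FPKM, SD, n = 3) and PDGFRB (1.62 ± 0.227) reached 1 FPKM in KYSE150 normoxia, and both were called lower in its hypoxia libraries (-0.29 and -0.59); none did in KYSE410. In the sequencing sheet numbers of the labels, the KYSE410 normoxia libraries (38 to 40) stand apart from its hypoxia libraries (56 to 58), so oxygen and library set cannot be told apart in that line. The KYSE150 libraries run from 50 to 55.

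One library stood apart in a way that touches the long repair genes. In KYSE150 normoxia replicate 2 the value was the lowest of the 3 normoxia libraries for 28 of the 39 members. Its log2 deviation from the other 2 normoxia libraries fell with transcript length, with a Spearman rho of -0.80 over the 39 members and -0.63 over 12181 genes (a description across genes, which share these libraries). All 10 members with the longest transcripts were below their normoxia mates, from -0.92 to -0.13 on the log2 scale, against 3 of the 10 with the shortest, which ranged from -0.22 to 0.34. ATM, the longest at 13147 nt, was 8.52, 4.12 and 8.91 FPKM in the 3 normoxia libraries. Without this library the calls in KYSE150 were 10 members higher and 20 lower, where all libraries gave 9 and 16. Over all genes the calls also grew, from 2981 higher and 4925 lower to 3661 and 5756. The 5 calls gained were falls of ATM (-0.34), BRCA1 (-0.47), BRIP1 (-0.49) and XRCC2 (-0.45) and the rise of RAD51AP1 (0.20).

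**Figure D1:**
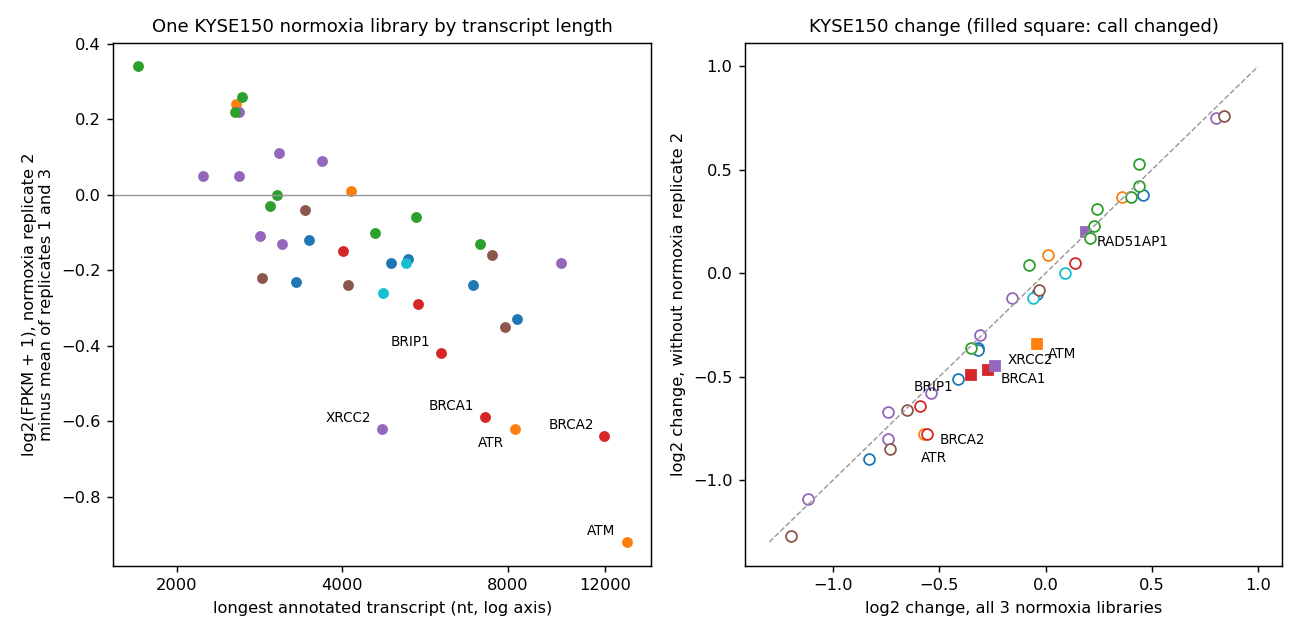
Left, log2(FPKM + 1) of each of the 39 genes in KYSE150 normoxia replicate 2 minus the mean of replicates 1 and 3, against the longest annotated transcript on a log axis; right, the KYSE150 log2 change with and without that library, with filled squares where the call changed and a dashed line of equality. Colours are the roles of the plot of changes by role; ATM and BRCA2 lie lowest on the left, with ATR, XRCC2 and BRCA1 next, and all 5 lie below the line on the right.

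Measured against all genes, the repair set as a whole did not stand out in either line, and its members split in both directions. In KYSE150, 9 of 39 members (23.1%) rose and 16 (41.0%) fell, where 23.5% of the 12692 genes tested were called higher and 38.8% lower. In KYSE410, 11 members (28.2%) rose and 19 (48.7%) fell, against 31.2% and 51.9% of 12054 genes. The median change of the members was -0.16 in KYSE150 and -0.18 in KYSE410, beside -0.13 and -0.21 over all genes. These shares are near the background, so the count over the whole set is not a result about repair genes. What the data do show is which members went which way, and how alike that was in the 2 lines.

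The 2 lines share no library, and their calls were compared gene by gene. In all, 7 genes rose in both lines: MRE11, CHEK1, RAD54L, FANCA, FANCB, FANCG and MSH3. The 13 that fell in both were RAD50, RBBP8, BLM, ATR, BRCA2, PALB2, RAD51D, XRCC3, RAD52, FANCF, MLH3, PMS1 and PMS2. Those are 17.9% and 33.3% of the members, beside 13.8% and 29.4% of the 10951 genes tested in both lines. Over the 39 members the 2 changes had a Pearson r of 0.78 and a Spearman rho of 0.79, given as a description, and 31 (79.5%) had the same sign. Over the 10951 genes r was 0.59, rho 0.55 and the share of the same sign 69.3%. Only EXO1 was called in opposite directions. CHEK2, XRCC2, FANCL, FANCM and FANCD2 were called in neither line.

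**Figure D2:**
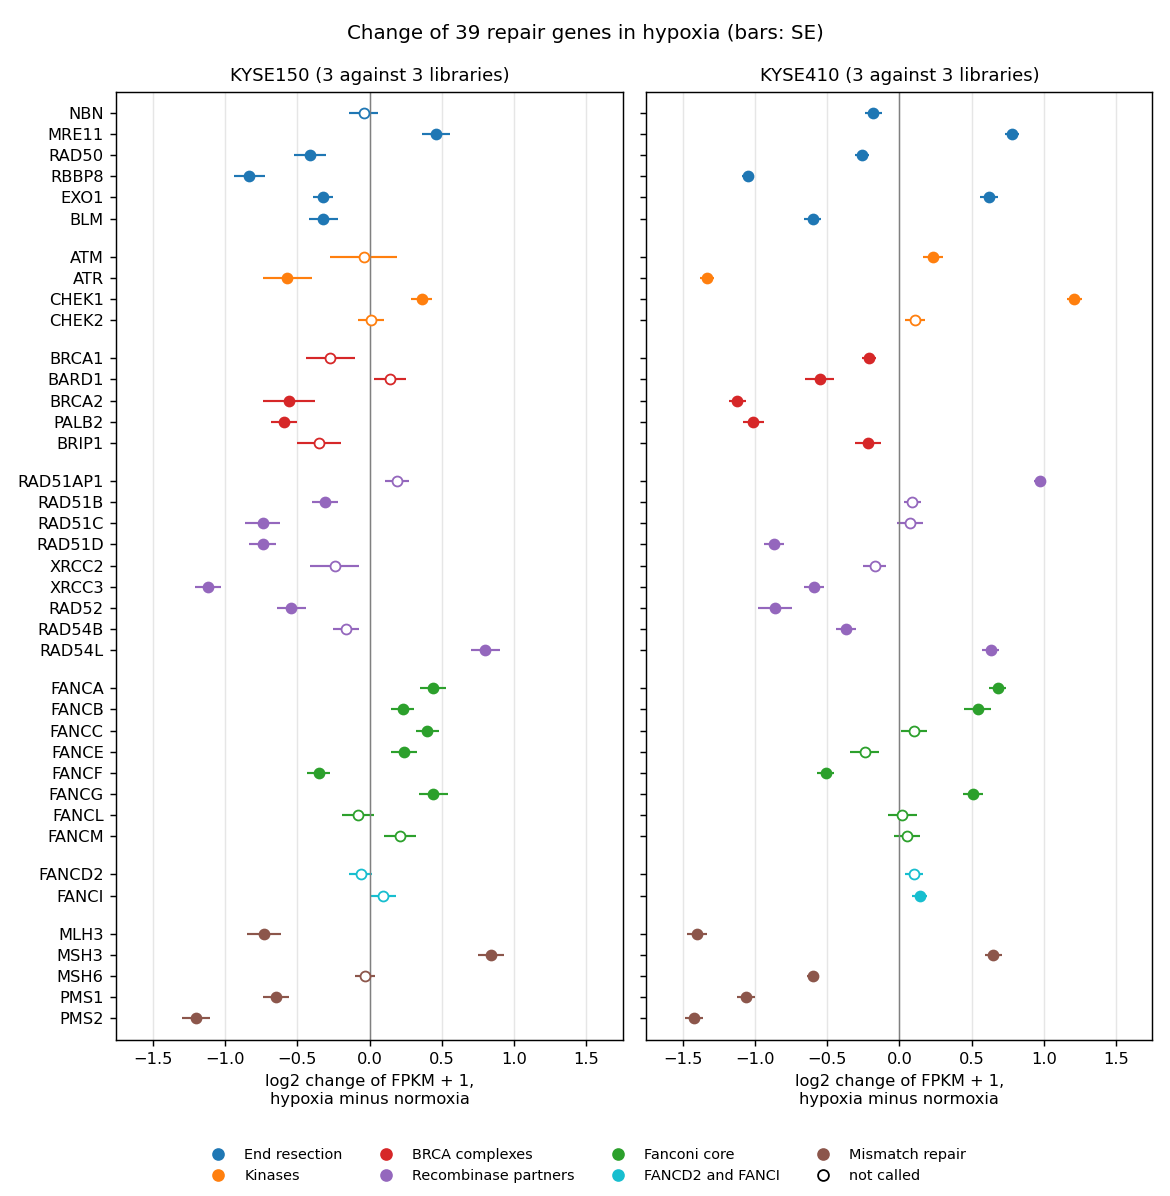
Log2 change of FPKM + 1, hypoxia minus normoxia, for each of the 39 repair genes in KYSE150 (left) and KYSE410 (right), grouped and coloured by role; bars are standard errors and open circles were not called. MSH3 lies right of 0 in both panels while MLH3, PMS1 and PMS2 lie left, and most Fanconi core genes lie right of 0 in KYSE150.

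The scaling between libraries moved the calls, mostly for members with small changes. Median-of-ratios scaling moved the median of all genes from -0.13 to 0.02 in KYSE150 and from -0.21 to -0.03 in KYSE410. It gave 13 members higher and 12 lower in KYSE150 and 16 and 15 in KYSE410, while quantile normalization gave 12 and 12, and 17 and 13. Rescaling the columns to a common sum gave 8 and 15 in KYSE150, and 9 and 21 in KYSE410. The median of all genes was then -0.12 in KYSE150 and -0.42 in KYSE410, and that of the members -0.15 and -0.38. Removing the trend of the change with transcript length and GC content gave 14 and 12, and 21 and 13. Under all 4 scalings 8 members were higher and 12 lower in KYSE150, beside 22.0% and 28.8% of all genes, which compares with 20.5% and 30.8% of members. In KYSE410, 9 members (23.1%) were higher and 13 (33.3%) lower under all 4, beside 22.3% and 39.1% of all genes. MRE11, CHEK1, RAD54L, FANCA, FANCG and MSH3 were higher under every scaling in both lines. The 11 lower under every scaling in both lines were RBBP8, ATR, BRCA2, PALB2, RAD51D, XRCC3, RAD52, FANCF, MLH3, PMS1 and PMS2.

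**Figure D3:**
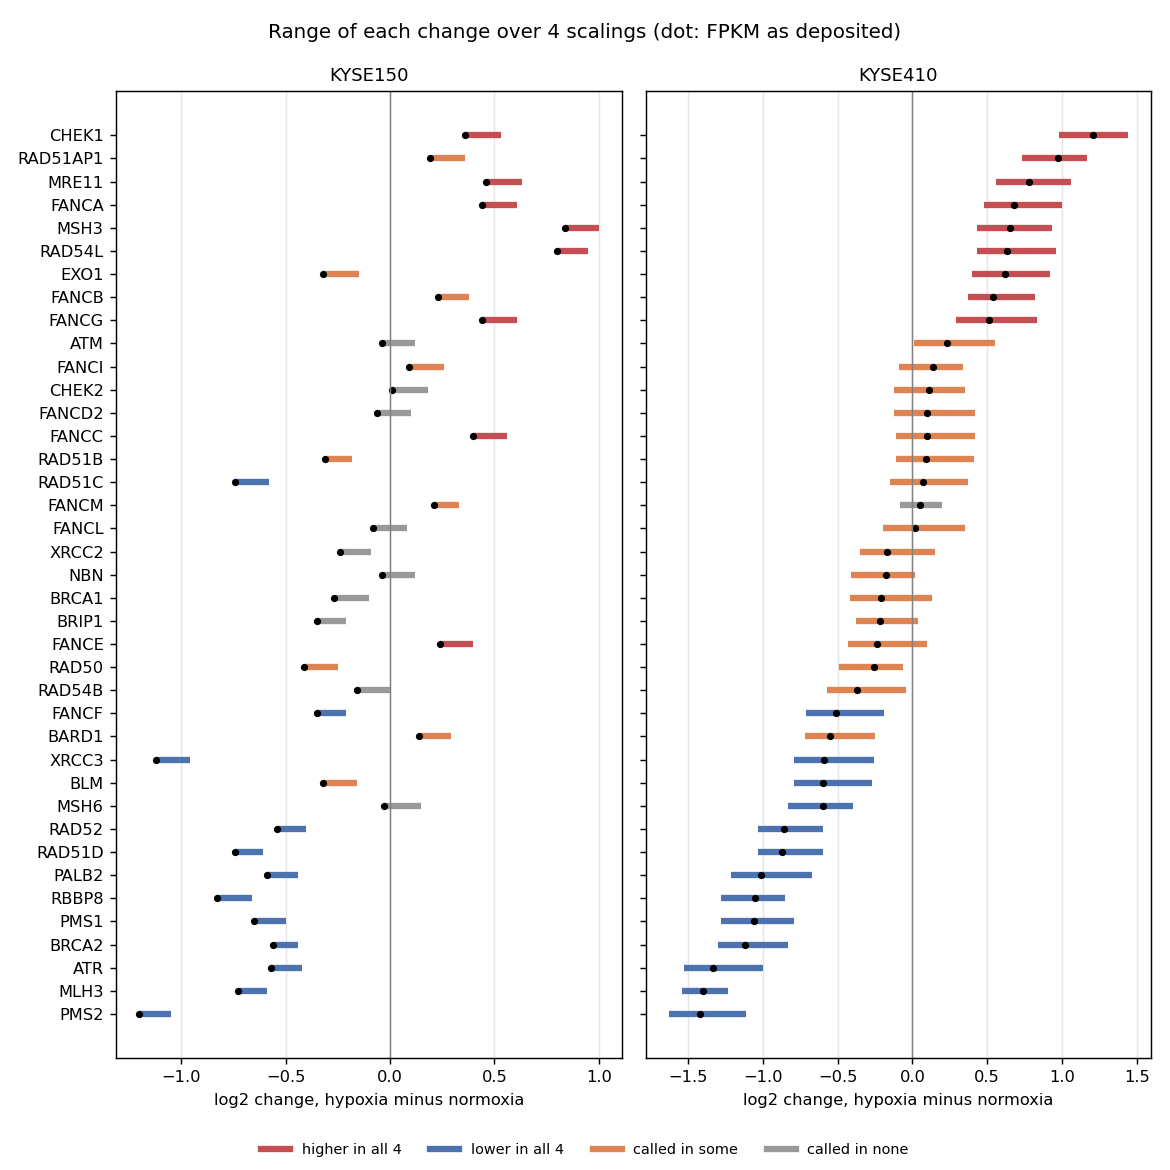
Each bar runs from the lowest to the highest log2 change of one gene over 4 scalings (as deposited, median-of-ratios, common column sum, quantile), with a black dot at the value from FPKM as deposited; genes are ordered by their KYSE410 change. In KYSE410 the bars of 9 genes at the top stay right of 0 and 13 lower genes are called under all 4, while the bars between them cross or approach 0.

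Promoters of 36 of the 39 members were matched by symbol in a RefSeq table (build GRCh38.p14, windows of 300 bases that reach from upstream of each annotated start to just after it); NBN, RAD54B and FANCI had no entry. Windows were searched on both strands for an E2F-type motif (TTTCCCGC, TTTCGCGC, TTTGCCGC or TTTGGCGC), the kind bound by E2F factors at S-phase genes. The search was also made for the CHR motif of late cell cycle genes (TTTGAA or TTCGAA). An E2F-type match was found in 9 of the 52 member windows (17.3%), against 3.31% of all 35116 windows and 47.2% of windows of replication genes. The CHR motif was in 5.77% of member windows, against 16.4% of all. Windows of one gene overlap, so they are not independent, and a match is a run of letters and not a shown binding site. The 8 genes with an E2F-type match were EXO1, XRCC2, FANCA, FANCC, FANCD2, MSH3, MSH6 and PMS2, which included members that rose, members that fell and members not called. Among member windows the share was 12% for genes that fell in KYSE410, 20% for those that rose and 25% for those not called, each from 3 windows. The 3 windows printed are those of the genes with the largest rise and fall in each line, MSH3 (highest in KYSE150), CHEK1 (highest in KYSE410) and PMS2 (lowest in both). Each is read on the strand of its gene, 5′ to 3′, with E2F-type matches in capitals. MSH3 is on the plus strand at chr5:80654402-80654701, PMS2 on the minus strand at chr7:6009057-6009356 and CHEK1 on the plus strand at chr11:125625979-125626278, each being the first start listed for that gene.
MSH3: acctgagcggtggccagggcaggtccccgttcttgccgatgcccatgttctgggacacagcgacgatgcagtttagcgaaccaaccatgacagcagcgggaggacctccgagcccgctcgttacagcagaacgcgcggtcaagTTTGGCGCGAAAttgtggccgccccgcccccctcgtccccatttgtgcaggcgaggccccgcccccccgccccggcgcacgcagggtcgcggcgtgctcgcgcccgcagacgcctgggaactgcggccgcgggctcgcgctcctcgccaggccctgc
PMS2: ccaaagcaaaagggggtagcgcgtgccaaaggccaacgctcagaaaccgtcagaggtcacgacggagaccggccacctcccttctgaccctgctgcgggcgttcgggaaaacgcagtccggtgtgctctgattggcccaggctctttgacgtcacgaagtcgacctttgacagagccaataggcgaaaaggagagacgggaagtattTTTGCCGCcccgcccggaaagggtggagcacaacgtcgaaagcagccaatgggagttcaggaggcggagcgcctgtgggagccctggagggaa
CHEK1: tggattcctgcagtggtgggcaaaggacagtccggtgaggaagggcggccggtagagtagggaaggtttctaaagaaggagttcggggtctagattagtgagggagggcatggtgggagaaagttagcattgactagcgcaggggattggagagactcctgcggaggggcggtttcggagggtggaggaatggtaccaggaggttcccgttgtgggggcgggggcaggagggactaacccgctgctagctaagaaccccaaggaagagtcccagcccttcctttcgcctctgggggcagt
In MSH3, 2 overlapping matches on opposite strands form the capitals, beginning at -107 and -103 relative to the start. PMS2 has 1 match in the window shown, at -43, and its other listed start reaches the same letters. The printed CHEK1 window holds none of these letters. The member that rose most in KYSE150 and the member that fell most in both lines each carry such a motif.

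Genes that open and trim the break moved apart on the deposited scale, with MRE11 up and most others down. In KYSE150, 1 of 6 rose and 4 fell, beside 23.5% and 38.8% of all genes. In KYSE410, 2 rose and 4 fell, beside 31.2% and 51.9%. Median-of-ratios scaling and quantile normalization each gave 1 and 1 in KYSE150, and 2 and 2 in KYSE410. With the length and GC trend removed, 1 was higher and 2 lower in KYSE150, and 4 higher and 2 lower in KYSE410. MRE11 is the nuclease of the MRN complex, in which RAD50 holds the DNA ends and NBN recruits the kinase ATM. In KYSE150, MRE11 was 12.8, 11.3 and 14.3 FPKM in normoxia against 16.8, 18.5 and 18.6 in hypoxia. In KYSE410 it was 7.78, 7.80 and 7.24 in normoxia and 14.2, 13.3 and 14.0 in hypoxia. The groups did not overlap in either line, and MRE11 rose by 0.46 ± 0.10 (SE) on the log2 scale in KYSE150 (limma adjusted p = 0.00386) and by 0.78 ± 0.05 in KYSE410 (limma adjusted p = 1.03e-06). RAD50 fell, by -0.41 ± 0.11 in KYSE150 (limma adjusted p = 0.0151) and -0.26 ± 0.05 in KYSE410 (limma adjusted p = 8.33e-04). That fall was not called in KYSE150 without hypoxia replicate 1 (-0.34, limma adjusted p = 0.0623) or without normoxia replicate 1 (-0.36, limma adjusted p = 0.0529). It was called in neither line under median-of-ratios scaling, where the values were -0.25 and -0.06. NBN changed by -0.04 in KYSE150, not called, and by -0.18 in KYSE410 (limma adjusted p = 0.0256), a value that was 0.02 under median-of-ratios scaling. NBN was not called in KYSE410 without hypoxia replicate 1 (-0.14), normoxia replicate 1 (-0.18) or normoxia replicate 3 (-0.13). With the length and GC trend removed, the KYSE410 values of RAD50 and NBN were 0.22 and 0.20. Differences between the subunits were not tested.

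RBBP8 (chr18:22798261-23026488), which encodes CtIP, the partner that starts resection with MRN, had the largest change of this role. It was 23.8, 19.7 and 22.7 FPKM in KYSE150 normoxia and 10.5, 12.2 and 13.4 in hypoxia. KYSE410 gave 25.8, 25.6 and 25.9 in normoxia and 11.7, 11.9 and 12.2 in hypoxia. Every hypoxia library was below every normoxia library, and both lines ended at a mean of 12 FPKM. The log2 change was -0.83 ± 0.11 in KYSE150 (limma adjusted p = 3.57e-04) and -1.05 ± 0.04 in KYSE410 (limma adjusted p = 4.37e-08). RBBP8 has a pseudogene by name, RBBP8P1, whose reads could be shared.

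Long-range resection is carried out by the exonuclease EXO1 and by the BLM helicase with its partners. EXO1 was 44.5, 42.1 and 47.0 FPKM in KYSE150 normoxia and 34.9, 36.1 and 35.6 in hypoxia. In KYSE410 it was much lower in normoxia, at 7.33, 6.40 and 7.27, and 10.8, 11.6 and 11.3 in hypoxia. It fell by 0.32 ± 0.07 in KYSE150 (limma adjusted p = 0.00483) and rose by 0.62 ± 0.06 in KYSE410 (limma adjusted p = 1.69e-05), so the 2 lines came nearer to each other. The KYSE150 fall was -0.15 and not called under median-of-ratios scaling (limma adjusted p = 0.104), while the KYSE410 rise was called under all 4 scalings. With the length and GC trend removed, the KYSE150 value of EXO1 was -0.09 and not called. BLM fell in KYSE410 from 4.36 ± 0.0927 to 2.53 ± 0.132 FPKM (SD, n = 3; limma adjusted p = 1.66e-05). In KYSE150 its fall of -0.32 was lost without hypoxia replicate 1 (-0.27), hypoxia replicate 2 (-0.31) or normoxia replicate 3 (-0.25), and under median-of-ratios scaling (-0.16). The KYSE150 call of BLM was also lost with the length and GC trend removed (-0.15).

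The 2 pairs of damage kinases also split. ATR and ATM are the upstream kinases that sense single-stranded DNA and breaks, and CHEK1 and CHEK2 are their downstream kinases, CHEK1 mainly of ATR and CHEK2 mainly of ATM. ATR was 6.75, 4.06 and 6.81 FPKM in KYSE150 normoxia and 3.68, 3.33 and 3.64 in hypoxia. In KYSE410 it was 8.24, 8.59 and 8.23 in normoxia and 2.60, 2.83 and 2.71 in hypoxia. All hypoxia libraries were lower, with a log2 change of -0.57 ± 0.17 in KYSE150 (limma adjusted p = 0.019) and -1.33 ± 0.05 in KYSE410 (limma adjusted p = 7.85e-08). The KYSE150 call rested on few libraries: it was lost without hypoxia replicate 1 (-0.59), hypoxia replicate 2 (-0.53), normoxia replicate 1 (-0.47) or normoxia replicate 3 (-0.46). It was firmer without the low normoxia replicate 2, at -0.78 (limma adjusted p = 2.87e-05).

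CHEK1 (chr11:125625136-125676255) went the other way from ATR. It was 37.8, 37.7 and 37.2 FPKM in KYSE150 normoxia and 45.1, 51.8 and 49.2 in hypoxia. In KYSE410 it was 9.89, 9.44 and 10.4 in normoxia and 23.4, 25.2 and 23.8 in hypoxia. The hypoxia libraries were all above the normoxia libraries, with a log2 change of 0.36 ± 0.07 in KYSE150 (limma adjusted p = 0.00327) and 1.21 ± 0.05 in KYSE410 (limma adjusted p = 9.12e-08), the largest rise of any member in that line. An exon of STT3A overlaps CHEK1 on the same strand in GENCODE 29, so reads there could belong to either gene. ATM in KYSE410 was 7.22, 8.59 and 7.30 FPKM in normoxia against 9.10, 9.44 and 9.01 in hypoxia, a rise of 0.23 ± 0.07 (limma adjusted p = 0.0117) that was 0.01 and not called with columns rescaled to a common sum. In KYSE150 hypoxia ATM was 6.29, 6.96 and 6.71 FPKM, inside the normoxia range, and its change was -0.04 ± 0.23. Without normoxia replicate 2 that change was -0.34 (limma adjusted p = 0.00184). CHEK2 was not called, at 26.4 ± 2.72 and 26.6 ± 0.684 FPKM in KYSE150 and 13.7 ± 0.847 and 14.9 ± 1.37 in KYSE410 (SD, n = 3). In KYSE410 CHEK2 was called higher without hypoxia replicate 1 (0.18), under median-of-ratios scaling (0.31), under quantile normalization (0.35) and with the length and GC trend removed (0.29), and that removal also called it in KYSE150 (0.21).

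No member of the BRCA1 and BRCA2 complexes rose, and all 5 fell in KYSE410. BRCA1 with its ligase partner BARD1 promotes resection, PALB2 bridges BRCA1 to BRCA2, BRCA2 loads the recombinase, and BRIP1 is a helicase that binds BRCA1. The count of falls was 2 of 5 in KYSE150, near the 38.8% of all genes called lower there, and 5 of 5 in KYSE410, beside 51.9% of all genes; the medians were -0.35 and -0.55. Under median-of-ratios scaling 3 of 5 were lower in KYSE410 and under quantile normalization 2 of 5; in KYSE150 those scalings called BARD1 higher, at 0.29 and 0.27. With the length and GC trend removed, 2 of the 5 were higher and 2 lower in KYSE410. BRCA2 (chr13:32315474-32400266, plus strand) was 2.70, 1.37 and 2.70 FPKM in KYSE150 normoxia and 1.05, 1.1 and 1.34 in hypoxia. The KYSE410 values were 4.75, 5.04 and 4.93 in normoxia and 1.65, 1.77 and 1.74 in hypoxia. The log2 change was -0.56 ± 0.18 in KYSE150 (limma adjusted p = 0.0251) and -1.12 ± 0.06 in KYSE410 (limma adjusted p = 3.39e-07). In KYSE150 the highest hypoxia library (1.34) was next to the lowest normoxia library (1.37), and the call was lost without hypoxia replicate 1 (-0.53), hypoxia replicate 2 (-0.54), normoxia replicate 1 (-0.46) or normoxia replicate 3 (-0.46). Without normoxia replicate 2 it was -0.78 (limma adjusted p = 1.33e-04).

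PALB2 fell in both lines under all 4 scalings. Its level was 6.94, 6.17 and 6.95 FPKM in KYSE150 normoxia and 4.02, 3.80 and 4.52 in hypoxia, and 7.02, 7.55 and 7.73 against 3.41, 2.88 and 3.32 in KYSE410. The groups were apart in both lines, at -0.59 ± 0.09 (limma adjusted p = 8.52e-04) and -1.01 ± 0.07 (limma adjusted p = 1.73e-06). BRCA1 itself changed less. In KYSE150 it was 17.7, 12.3 and 20.4 FPKM in normoxia against 12.7, 13.1 and 14.8 in hypoxia, with overlapping groups and a change of -0.27 ± 0.17 that was not called (limma adjusted p = 0.191). Without normoxia replicate 2 the BRCA1 change was -0.47 (limma adjusted p = 0.00114). In KYSE410, BRCA1 was 6.94, 7.06 and 7.09 in normoxia and 5.58, 6.03 and 6.30 in hypoxia, a fall of -0.21 ± 0.05 (limma adjusted p = 0.00752) that was -0.02 under median-of-ratios scaling and 0.13 under quantile normalization, neither called.

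BARD1, whose protein is stable mainly as a pair with BRCA1, differed between lines. It was 4.82, 3.86 and 5.08 FPKM in KYSE150 normoxia and 5.07, 4.94 and 5.44 in hypoxia, with overlapping groups (0.14 ± 0.11, limma adjusted p = 0.261). KYSE410 libraries gave 3.44, 3.31 and 3.15 in normoxia and 2.19, 2.15 and 1.51 in hypoxia, a fall of -0.55 ± 0.10 (limma adjusted p = 8.64e-04). That fall was -0.25 and not called under quantile normalization (limma adjusted p = 0.0611). With the length and GC trend removed it was -0.15 and not called (limma adjusted p = 0.188). BRIP1 changed by -0.35 in KYSE150, not called (limma adjusted p = 0.0726), and by -0.22 in KYSE410 (limma adjusted p = 0.0472). The KYSE410 call of BRIP1 was lost without hypoxia replicate 1 (-0.15), hypoxia replicate 2 (-0.22), normoxia replicate 2 (-0.18) or normoxia replicate 3 (-0.22), and the value was 0.04 under quantile normalization. In KYSE150 it was -0.49 and called without normoxia replicate 2.

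**Figure D4:**
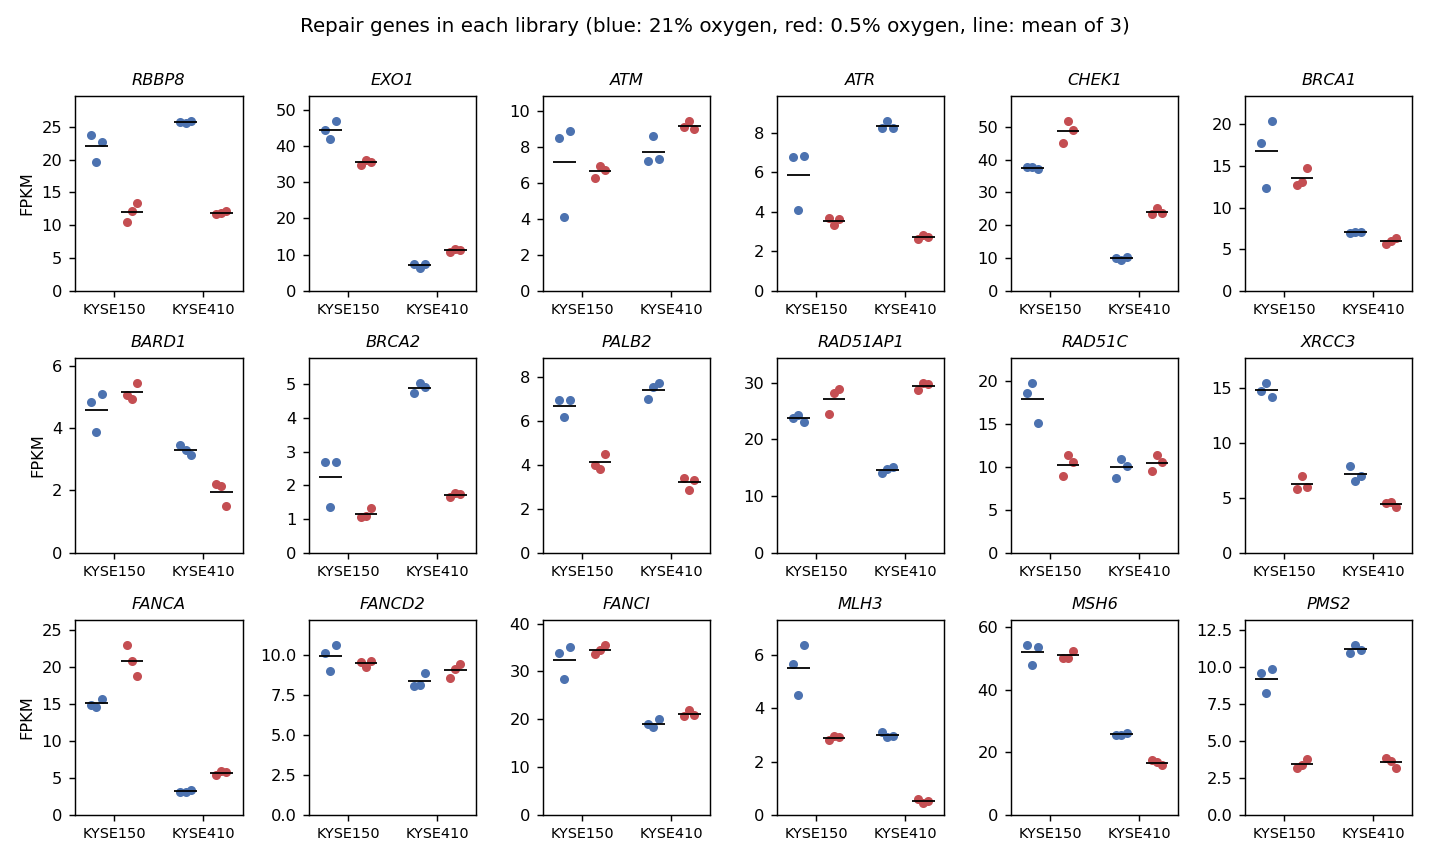
FPKM of 18 repair genes in every library, 3 per group, with blue points for 21% oxygen, red points for 0.5% oxygen and a line at the mean; each panel starts at 0. PMS2, RBBP8 and PALB2 are lower in red in both lines, CHEK1 and FANCA are higher, and EXO1 is lower in KYSE150 and higher in KYSE410.

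The 9 partners of the recombinase went in both directions, in shares that in KYSE410 were no higher than those of all genes. The paralogs RAD51B, RAD51C, RAD51D, XRCC2 and XRCC3 form small complexes that stabilise the filament, RAD52 anneals strands, RAD54L and RAD54B are motor proteins that open the target duplex, and RAD51AP1 stimulates strand invasion. In KYSE150, 1 of 9 rose and 5 fell (median -0.31), beside 23.5% and 38.8% of all genes, and in KYSE410, 2 rose and 4 fell (median -0.17), beside 31.2% and 51.9%. Median-of-ratios scaling gave 2 and 4 in KYSE150 and 4 and 4 in KYSE410. XRCC3 was 14.7, 15.4 and 14.1 FPKM in KYSE150 normoxia and 5.79, 6.95 and 5.97 in hypoxia. The other line had 7.92, 6.51 and 6.96 in normoxia and 4.51, 4.57 and 4.15 in hypoxia. The groups were apart in both lines and the fall was larger in KYSE150, at -1.12 ± 0.09 (limma adjusted p = 2.69e-05) against -0.59 ± 0.07 (limma adjusted p = 8.88e-05). Exons of KLC1 overlap XRCC3 on the other strand.

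RAD51D and RAD52 fell in both lines. RAD51D went from 4.58 ± 0.401 to 2.33 ± 0.0267 FPKM in KYSE150, and in KYSE410 from 3.47 ± 0.173 to 1.46 ± 0.168 (SD, n = 3), with limma adjusted p = 2.05e-04 and 7.37e-06. A read-through transcript with RFFL shares exons with RAD51D. RAD52 went from 3.13 ± 0.251 to 1.84 ± 0.208 FPKM and from 3.36 ± 0.735 to 1.38 ± 0.134 (SD, n = 3), with limma adjusted p = 0.00176 and 2.12e-04. RAD51C fell in KYSE150 only by the call, with 18.6, 19.7 and 15.1 FPKM in normoxia against 8.86, 11.3 and 10.5 in hypoxia (-0.74 ± 0.12, limma adjusted p = 0.00112). In KYSE410 its libraries overlapped, at 8.70, 10.9 and 10.1 in normoxia and 9.53, 11.3 and 10.5 in hypoxia (0.07 ± 0.09, limma adjusted p = 0.475). RAD51C was called higher in KYSE410 under median-of-ratios scaling (0.26), quantile normalization (0.37) and with the length and GC trend removed (0.28).

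RAD54L was called higher in both lines and RAD51AP1 in KYSE410. RAD54L was 5.76, 5.68 and 6.91 FPKM in KYSE150 normoxia and 12.2, 10.7 and 11.1 in hypoxia, and 3.53, 3.42 and 3.69 against 5.75, 6.04 and 6.28 in KYSE410. Its log2 change was 0.80 ± 0.10 (limma adjusted p = 2.34e-04) and 0.63 ± 0.06 (limma adjusted p = 1.05e-05). The related RAD54B did not rise: its change was -0.16, not called, in KYSE150 and -0.37 in KYSE410 (limma adjusted p = 8.55e-04), the latter -0.04 and not called under quantile normalization. With the length and GC trend removed, the KYSE410 value of RAD54B was -0.08 and not called. RAD51AP1 was 14.0, 14.7 and 15.1 FPKM in KYSE410 normoxia and 28.7, 29.9 and 29.7 in hypoxia, a rise of 0.97 ± 0.04 (limma adjusted p = 1.23e-07). In KYSE150 it was 23.7, 24.2 and 23.1 in normoxia and 24.4, 28.1 and 28.9 in hypoxia. Those groups did not overlap, yet the change of 0.19 ± 0.08 was not called (limma adjusted p = 0.0786); it was called without hypoxia replicate 1 (0.26), without normoxia replicate 2 (0.20) and under median-of-ratios scaling (0.36). Across all genes, 27% had every KYSE150 hypoxia library above every normoxia library and 42.6% had them all below, beside 11 and 16 of the 39 members. The same shares in KYSE410 were 31.9% and 52.7%, beside 12 and 20 members.

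The calls of the remaining paralogs depended on the scaling. RAD51B fell by 0.31 in KYSE150 (limma adjusted p = 0.0136), a call lost without hypoxia replicate 3 (-0.28) or normoxia replicate 1 (-0.29) and under median-of-ratios scaling (-0.18). With the length and GC trend removed, the KYSE150 value of RAD51B was -0.07 and not called. Its change in KYSE410 was 0.09 and not called, but it was called higher under median-of-ratios scaling (0.26), quantile normalization (0.41) and with the length and GC trend removed (0.29). XRCC2 was not called in either line, at -0.24 and -0.17, and without KYSE150 normoxia replicate 2 it was -0.45 and called in that line. With columns rescaled to a common sum the XRCC2 value in KYSE410 was -0.35 and called.

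Most Fanconi core genes that were called had risen. FANCA, FANCB, FANCG, FANCC, FANCE and FANCF are scaffold subunits of the core complex, FANCL is its ubiquitin ligase, and FANCM is the helicase that brings it to DNA. In KYSE150, 5 of 8 rose and 1 fell (median 0.23), and in KYSE410, 3 rose and 1 fell (median 0.08). Of all genes, 23.5% were called higher in KYSE150 and 31.2% in KYSE410, so the KYSE410 count of rises is near the background. The KYSE410 median was -0.09 with columns rescaled to a common sum, where 3 rose and 2 fell, and 0.24 under median-of-ratios scaling, where 4 rose and 1 fell. FANCA was 14.8, 14.6 and 15.7 FPKM in KYSE150 normoxia and 22.9, 20.7 and 18.8 in hypoxia. The KYSE410 values were 3.10, 3.11 and 3.31 in normoxia and 5.32, 5.95 and 5.77 in hypoxia. All hypoxia libraries were above the normoxia libraries, with log2 changes of 0.44 ± 0.09 (limma adjusted p = 0.00293) and 0.68 ± 0.06 (limma adjusted p = 9.45e-06).

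FANCG and FANCB rose with FANCA in both lines. FANCG went from 11 ± 1.34 to 15.3 ± 1.16 FPKM in KYSE150, and in KYSE410 from 5.76 ± 0.598 to 8.58 ± 0.537 (SD, n = 3), with limma adjusted p = 0.00606 and 2.49e-04. FANCB rose by 0.54 ± 0.09 in KYSE410 (limma adjusted p = 5.30e-04). Its rise of 0.23 in KYSE150 (limma adjusted p = 0.0328) was lost without hypoxia replicate 2 (0.20), hypoxia replicate 3 (0.21), normoxia replicate 1 (0.21) or normoxia replicate 3 (0.24). FANCC rose by 0.40 ± 0.08 in KYSE150 (limma adjusted p = 0.00233) and changed by 0.10 in KYSE410, not called. There it was called higher under median-of-ratios scaling (0.28), quantile normalization (0.42) and with the length and GC trend removed (0.44). FANCE, at 0.24 ± 0.09 in KYSE150 (limma adjusted p = 0.0457), was not called there without hypoxia replicate 1 (0.21), 2 (0.28) or 3 (0.23) or without normoxia replicate 1 (0.21) or 3 (0.19). In KYSE410 FANCE changed by -0.24 ± 0.10 (limma adjusted p = 0.0518), and it was called lower without hypoxia replicate 2 (-0.33) or normoxia replicate 1 (-0.31) and with columns rescaled to a common sum (-0.43).

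FANCF was the core gene called lower on the deposited scale. With the length and GC trend removed, its KYSE150 value was -0.13 and not called (limma adjusted p = 0.123). It went from 4.55 ± 0.0658 to 3.35 ± 0.281 FPKM in KYSE150, and in KYSE410 from 5.72 ± 0.127 to 3.71 ± 0.230 (SD, n = 3), with limma adjusted p = 0.00718 and 4.48e-05. FANCL and FANCM were not called, with changes of -0.08 and 0.21 in KYSE150 and 0.02 and 0.05 in KYSE410. FANCM was called higher in KYSE150 under median-of-ratios scaling (0.31), quantile normalization (0.33) and with the length and GC trend removed (0.36), and in KYSE410 with that removal (0.51). FANCL was called higher in KYSE410 under quantile normalization (0.35). FANCM had the lowest normoxia level of the members in both lines, near the limit of 1 FPKM, at 1.26 ± 0.132 in KYSE150 normoxia and 1.12 ± 0.175 in KYSE410 normoxia (SD, n = 3).

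The substrates of the core complex, FANCD2 and FANCI, had small changes on the deposited scale. FANCD2 was 10.1, 9.01 and 10.6 FPKM in KYSE150 normoxia and 9.57, 9.23 and 9.63 in hypoxia. KYSE410 libraries gave 8.08, 8.13 and 8.86 in normoxia and 8.56, 9.09 and 9.44 in hypoxia. Both pairs of groups overlapped, with changes of -0.06 ± 0.08 and 0.10 ± 0.06 that were not called (limma adjusted p = 0.557 and 0.127). In KYSE410 FANCD2 was called higher under median-of-ratios scaling (0.29), quantile normalization (0.42) and with the length and GC trend removed (0.48). FANCI was 33.8, 28.5 and 35.1 FPKM in KYSE150 normoxia and 33.6, 34.4 and 35.5 in hypoxia, and 19.0, 18.3 and 20 against 20.7, 21.9 and 20.8 in KYSE410. It was called in KYSE410 alone, at 0.14 ± 0.05 (limma adjusted p = 0.0189), and that call was lost without hypoxia replicate 2 (0.12) or normoxia replicate 2 (0.11). With columns rescaled to a common sum the FANCI value in KYSE410 was -0.09, and in KYSE150 FANCI was called higher under median-of-ratios scaling (0.26) and with the length and GC trend removed (0.26).

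Mismatch repair held the largest fall of the whole set in both lines (PMS2) and the largest rise in KYSE150 (MSH3). MSH6 and MSH3 are the alternative MutS partners, for base mispairs and for loops, and PMS2, PMS1 and MLH3 are the alternative MutL partners, of which PMS2 carries the main nuclease. In KYSE150, 3 of 5 fell and MSH3 rose (median -0.65), and in KYSE410, 4 fell and MSH3 rose (median -1.06). Of all genes, 38.8% were called lower and 23.5% higher in KYSE150, and 51.9% and 31.2% in KYSE410. The counts of these 5 genes were the same under all 4 scalings. PMS2 (chr7:5973239-6009125, minus strand) was 9.59, 8.24 and 9.89 FPKM in KYSE150 normoxia and 3.19, 3.39 and 3.77 in hypoxia. The other line had 11, 11.5 and 11.2 in normoxia and 3.83, 3.66 and 3.19 in hypoxia. The groups lay far apart, with changes of -1.20 ± 0.10 (limma adjusted p = 3.27e-05) and -1.42 ± 0.06 (limma adjusted p = 1.44e-07), the largest falls of any member in both lines. GENCODE 29 lists 11 PMS2 pseudogenes by name, PMS2CL among them, so the share of reads that the authors' counting gave to PMS2 itself is uncertain.

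MLH3 and PMS1 fell with PMS2. MLH3 was 5.68, 4.52 and 6.38 FPKM in KYSE150 normoxia and 2.83, 2.95 and 2.93 in hypoxia. The KYSE410 values were 3.10, 2.93 and 2.98 in normoxia and 0.606, 0.431 and 0.510 in hypoxia. The changes were -0.73 ± 0.12 (limma adjusted p = 9.67e-04) and -1.4 ± 0.07 (limma adjusted p = 3.57e-07), and the pseudocount holds down the second since the hypoxia level was under 1 FPKM. PMS1 went from 8.41 ± 0.154 to 5.01 ± 0.492 FPKM in KYSE150, and in KYSE410 from 15.7 ± 1.13 to 6.98 ± 0.187 (SD, n = 3), with limma adjusted p = 3.80e-04 and 4.44e-07. All 3 MutL partners listed here therefore fell in both lines.

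The MutS partners went in different directions. MSH3 (chr5:80654648-80876460, plus strand) was 6.91, 5.76 and 7.01 FPKM in KYSE150 normoxia and 12, 12.3 and 13.2 in hypoxia. KYSE410 libraries gave 7.73, 8.10 and 8.71 in normoxia and 14.0, 12.7 and 13.4 in hypoxia. The hypoxia libraries were all higher, with changes of 0.84 ± 0.09 (limma adjusted p = 1.43e-04) and 0.65 ± 0.06 (limma adjusted p = 9.10e-06).

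MSH6 was high in both lines. It was 54.2, 48.0 and 53.5 FPKM in KYSE150 normoxia and 50.2, 50.1 and 52.5 in hypoxia, with overlapping groups and a change of -0.03 ± 0.07 (limma adjusted p = 0.783). The other line had 25.6, 25.6 and 26.3 in normoxia and 17.4, 16.8 and 15.9 in hypoxia, a fall of -0.60 ± 0.04 (limma adjusted p = 2.42e-06). The hypoxia level of MSH6 against MSH3 was thus 50.9 ± 1.4 against 12.5 ± 0.631 FPKM in KYSE150 and 16.7 ± 0.765 against 13.4 ± 0.656 in KYSE410 (SD, n = 3), while in normoxia it was 51.9 ± 3.40 against 6.56 ± 0.696 and 25.9 ± 0.412 against 8.18 ± 0.495.

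The response differed between lines for 18 of the 39 members when the difference itself was tested in a joint limma fit of all 12 libraries, which assumes 1 spread for both lines. The difference, KYSE410 minus KYSE150, was positive for 8 members (20.5%) and negative for 10 (25.6%), against 27.3% and 36% of 12653 genes. Positive differences were found for EXO1 (0.93 ± 0.09, limma adjusted p = 2.83e-06), CHEK1 (0.84 ± 0.08, limma adjusted p = 5.06e-06) and RAD51C (0.81 ± 0.16, limma adjusted p = 9.17e-04), and for RAD51AP1, XRCC3, RAD51B, MRE11 and FANCB. Negative ones were found for ATR (-0.77 ± 0.19, limma adjusted p = 0.00385), BARD1 (-0.70 ± 0.15, limma adjusted p = 0.00153) and MLH3 (-0.67 ± 0.13, limma adjusted p = 9.55e-04), and for MSH6, BRCA2, FANCE, PALB2, PMS1, FANCC and BLM. Of the 9 recombinase partners, 4 had positive differences and none a negative one, while 3 of 5 mismatch repair genes and 3 of 5 BRCA complex genes had negative ones and none a positive one. EXO1, CHEK1, RAD51AP1, RAD51C and XRCC3 were called positive under all 4 scalings, and ATR, BARD1, MLH3, MSH6 and PMS1 negative. Without KYSE150 normoxia replicate 2 the counts were 14 positive and 8 negative, with ATM (0.57), XRCC2 (0.28), BRCA1 (0.26), FANCA (0.26), RAD50 (0.25) and FANCD2 (0.22) gained as positive, and BLM (-0.23) and FANCC (-0.27) no longer called. BRCA2 was still called there, at -0.34. ATR was also still called, at -0.56, beside -0.60 for BARD1 and -0.56 for MLH3, so it no longer had the most negative value. In KYSE410 the oxygen contrast also spans the 2 library sets, and their part in these differences cannot be told apart from oxygen.

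**Figure D5:**
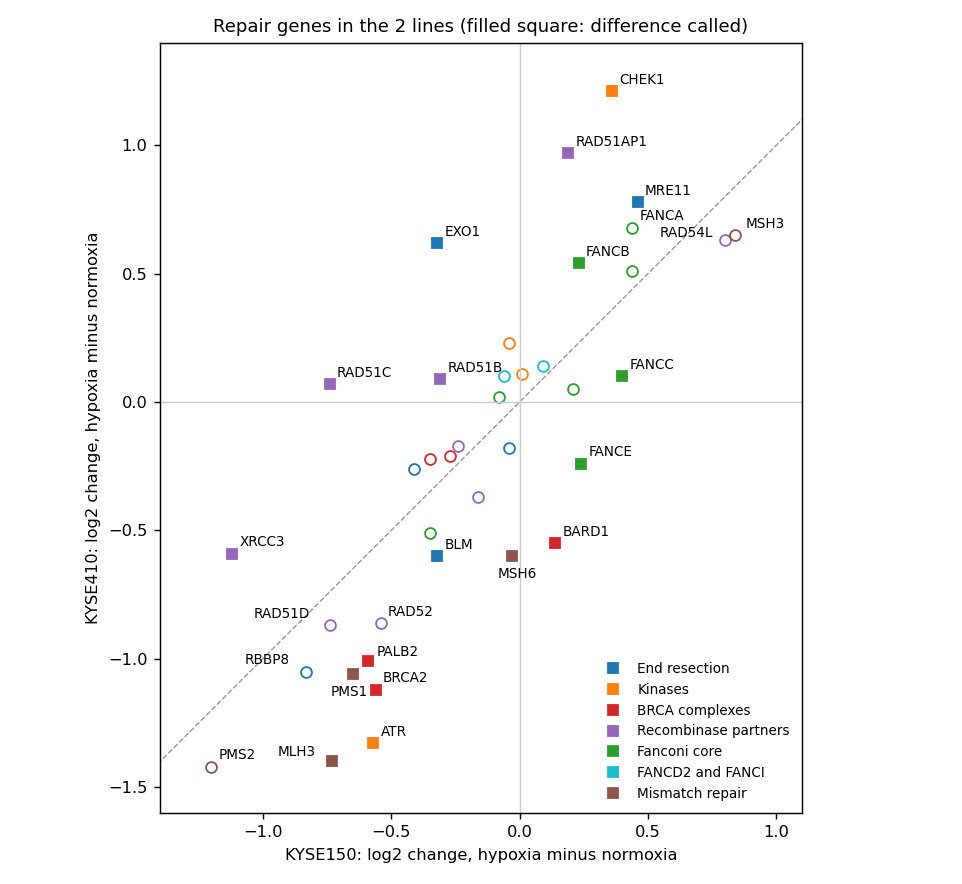
Log2 change, hypoxia minus normoxia, in KYSE410 (vertical) against KYSE150 (horizontal) for the 39 genes, coloured by role, with filled squares where the difference between lines was called and a dashed line of equality. EXO1 and RAD51C lie above the line and left of 0, and MSH6, BARD1 and FANCE lie below the line near or right of 0.

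The other genes of these pathways, 77 listed and 73 tested, gave 13 higher and 37 lower in KYSE150 and 26 and 36 in KYSE410. Of all genes, 23.5% were higher and 38.8% lower in KYSE150, and 31.2% and 51.9% in KYSE410, where the pathway counts are near the background. Other recombination genes gave 3 higher and 15 lower of 28 in KYSE150, and 9 and 12 in KYSE410. WRN, a RecQ helicase, changed by -1.11 in KYSE150 and -0.98 in KYSE410, called lower in both, and GEN1, a resolvase of crossed strands, changed by -0.94 in KYSE150 and -1.51 in KYSE410, called lower in both; in KYSE410 its hypoxia level was 0.250 FPKM. RMI2, which binds BLM, rose by 0.81 in KYSE150 and 1.56 in KYSE410. Among 15 other Fanconi genes 2 rose and 9 fell in KYSE150, and 5 and 8 in KYSE410; USP1, which removes ubiquitin from FANCD2, fell in both lines (-0.98 and -1.17) while its cofactor WDR48 rose in both (1.13 and 0.53). ERCC4, the XPF nuclease of crosslink repair, fell by 0.88 in KYSE150 and, in KYSE410, from 5.10 ± 0.515 to 0.636 ± 0.0603 FPKM (SD, n = 3). Of 17 damage signalling genes 4 rose and 8 fell in KYSE150, and 3 and 13 in KYSE410, with CDC25A, the phosphatase that CHEK1 targets, at -1.14 and -1.72.

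The list of other mismatch repair genes holds mostly factors shared with replication, such as the sliding clamp and its loader, with MSH5, a meiotic MutS homolog, and HMGB1. Of 13 tested, 4 rose and 5 fell in KYSE150, near the background, and 9 rose and 3 fell in KYSE410, MSH5 being one of those that fell. The polymerase subunit POLD1 rose by 0.87 in KYSE150 and 1.55 in KYSE410, and the ligase LIG1 by 0.58 and 1.49. The clamp PCNA changed by -0.26 in KYSE150 (called, limma adjusted p = 0.05) and by 1.24 in KYSE410, and RFC4, a clamp loader subunit, changed by -0.87 in KYSE150 and 0.66 in KYSE410, called in both. Other repair systems served for comparison. End joining genes gave 4 higher and 6 lower of 19 in KYSE150, and 4 and 12 in KYSE410, with LIG4, the end joining ligase, at -1.03 and -1.71. Base and nucleotide excision repair genes gave 6 and 8 of 22, and 9 and 10. Beside these counts, 23.5% of all genes were called higher and 38.8% lower in KYSE150, and 31.2% and 51.9% in KYSE410.

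Cell cycle genes moved in these cultures too, and the values come from whole cultures, so fewer cells in a cycle phase and less RNA in each cell cannot be told apart. Replication genes were split in KYSE150, with 11 higher and 12 lower of 33, and mostly higher in KYSE410, with 23 higher and 3 lower of 31. All 35 G2 and mitosis genes rose in KYSE150 (median 1.14), where in KYSE410 10 rose and 21 fell (median -0.17). MKI67, the proliferation marker, went from 15.2 ± 6.71 to 46.8 ± 1.49 FPKM in KYSE150, and in KYSE410 from 28.5 ± 0.667 to 10.4 ± 0.934 (SD, n = 3). The shares of all genes were 23.5% higher and 38.8% lower in KYSE150, and 31.2% and 51.9% in KYSE410. Of 18 E2F and RB family regulators 3 rose and 7 fell in KYSE150, and 6 and 6 of 16 in KYSE410. E2F6, a repressor of the family, fell from 13.0 ± 0.408 to 3.35 ± 0.306 FPKM in KYSE150, and in KYSE410 from 8.29 ± 0.510 to 1.68 ± 0.131 (SD, n = 3). E2F4 changed by -0.89 in KYSE150 and -0.76 in KYSE410, called lower in both. The activators did not move together. E2F1, an activator, changed by 0.09 in KYSE150, not called, and rose by 1.03 in KYSE410. E2F3, also an activator, was called lower in both lines, at -0.62 in KYSE150 and -1.33 in KYSE410. The activator E2F2 was called lower in KYSE150 (-0.72) and was not tested in KYSE410. The part of cell cycle phase or of these factors in the changes of the repair genes was not tested.

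The members' change against transcript length had a Spearman rho of -0.08 in KYSE150 and -0.22 in KYSE410, given as a description beside 0.06 and -0.27 over all genes. In KYSE410, genes with transcripts over 4000 nt were more often lower in general (63.9% against 44.6% of shorter ones), and so were the members, with 12 of 22 against 7 of 17. In KYSE150 the longer genes were less often lower (34.6% against 42.0%), as were the members, with 7 of 22 against 9 of 17. The part of length in the members' changes was not tested. Exons of another annotated gene overlapped 7 members on the same strand and 19 on the other strand, and 6 members had a pseudogene by name, so values of those genes carry the added uncertainty of the authors' counting.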

How the data were processed

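RNA of 12 samples (3 per group) was sequenced after poly(A) capture, per the labels' protocols. Per the submitters' processing notes, bcl2fastq 2.20, fastp 0.22.0, HISAT2 2.2.1 and build hg38 were used; for the quantifier and strand use, nothing is given in the sources used here. Per gene, FPKM were deposited by the authors, 1 table per line, and low values showed no whole-read steps, so depth is unknown. FPKM columns summed to between 351501 and 425094. In KYSE410 the sums were 351501 to 356994 in normoxia and 415926 to 425094 in hypoxia, so they were apart by oxygen. In KYSE150 they were 366156 to 413967 in normoxia and 377909 to 382990 in hypoxia. Within each line, log2(FPKM + 1), computed for genes averaging 1 FPKM or more, was fitted with limma 3.58.1 (R 4.3.3, mean trend), with Benjamini-Hochberg adjustment over all genes tested and a threshold of 0.05; the method was tested on simulated data. The difference between lines came from 1 fit of all libraries. Replicate r was 0.9786 to 0.9964. Positions and lengths came from GENCODE 29, and a length was found for 96% (KYSE150) and 96.1% (KYSE410) of tested genes. Median-of-ratios factors used genes above 0 in every library of a line.

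Values in every library are given for the member with the largest change per role and line, for BRCA1, BRCA2, ATM, ATR, CHEK1, FANCD2, FANCI and MSH6, and for the 3 largest differences each way; MRE11, RAD54L and MSH3 were added after their values were seen. Other pathway genes named were picked from the 3 largest called changes per list and line, and not all of those are named. TIPIN (-1.70 in KYSE150) and DCLRE1C (-1.90 in KYSE410), the largest of their lists there, were left out. MKI67, MSH5 and E2F2 were added. The members and lists were chosen with earlier results of these data known. Alternatives covered scaling, pseudocount, filter, threshold, replicate block, length and GC trend, variance model and each library left out.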

Additional observations from a re-analysis of the deposited data

Results flagged for a closer look

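For 18 members the response to hypoxia differed between the lines in a test of the difference itself (limma, KYSE410 minus KYSE150, log2 scale). The response was more positive in KYSE410 for EXO1 (0.93), CHEK1 (0.84), RAD51C (0.81), RAD51AP1 (0.78), XRCC3 (0.54), RAD51B (0.40), MRE11 (0.32) and FANCB (0.32). It was more negative in KYSE410 for ATR (-0.77), BARD1 (-0.70), MLH3 (-0.67), MSH6 (-0.58), BRCA2 (-0.55), FANCE (-0.48), PALB2 (-0.42), PMS1 (-0.41), FANCC (-0.30) and BLM (-0.29). Among all genes, 27.3% had a positive and 36% a negative difference. XRCC3 fell in both lines, and its positive difference is a smaller fall in KYSE410. Without KYSE150 normoxia replicate 2 the ATR difference was -0.56 and that of BARD1 -0.60, both still called.

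Leaving out single libraries ended the call for 5 of them. BLM and FANCC each lost it without 9 of the 12 libraries in turn, FANCB without 5, BRCA2 without 4 and MRE11 without 2. The value nearest 0 was -0.23 for BLM (without KYSE150 hypoxia replicate 3 or normoxia replicate 2), -0.22 for FANCC (without KYSE410 normoxia replicate 1) and 0.26 for FANCB (without KYSE410 normoxia replicate 1). For BRCA2 it was -0.50 (without KYSE150 hypoxia replicate 3) and for MRE11 0.28 (without KYSE150 hypoxia replicate 1) among the libraries that ended the call.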

How the results depend on the processing

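In KYSE150, 11 of 25 called members kept their direction and call in every alternative in which they were tested, and in KYSE410 22 of 30. With a change of at least 0.5 on the log2 scale also required, 2 members were higher in KYSE150, and the difference between lines was positive for 5 and negative for 5. Over all genes, 1833 of 12692 were then higher in KYSE150, and 2399 differences were positive and 3244 negative of 12653. With a mean of at least 5 FPKM required, which tests fewer genes, 9 members were lower in KYSE150 and 11 in KYSE410. Over all genes, 3253 of 8085 were then lower in KYSE150 and 4007 of 7771 in KYSE410. Quantile normalization gave 17 members higher in KYSE410 and 5 negative differences, and a common column sum gave 5 positive and 18 negative differences. With the length and GC trend removed, 14 members were higher in KYSE150, 21 in KYSE410, and 16 differences were positive. The replicate block with that removal gave 14, 21 and 16. Of all genes called with the removal alone, 48.8%, 50.8% and 50.5% were higher or positive, beside 53.8%, 61.8% and 69.6% of called members. Among called differences of all genes, 48.5% were positive under quantile normalization and 28.1% with a common column sum, beside 66.7% and 21.7% for members. The replicate block alone gave 7 higher and 16 lower in KYSE150, 11 and 20 in KYSE410, and 8 positive and 10 negative differences. Libraries of the same number did not deviate together (r of -0.07, 0.08 and 0.05 in KYSE150, and -0.05, -0.01 and 0.02 in KYSE410), so the numbers were not taken to pair them.

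Leaving out 1 library at a time gave 7 to 10 members higher and 12 to 20 lower in KYSE150, and 10 to 12 higher and 17 to 19 lower in KYSE410. It gave 6 to 14 positive and 7 to 11 negative differences, with 14 positive without KYSE150 normoxia replicate 2. The values that changed sign were, in KYSE410, NBN (0.02 under median-of-ratios scaling and 0.20 with the length and GC trend removed), RAD50 (0.22 with that removal), BRCA1 (0.13 under quantile normalization, 0.25 with the removal), BRIP1 (0.04 and 0.20 likewise) and FANCI (-0.09 with a common column sum). In the difference between lines RAD51D was 0.36 with the removal. Values with the replicate block added to the removal were the same to 2 decimals, and the cause was not tested. Read depth is unknown, so members near 1 FPKM, such as FANCM, carry a counting error that could not be given.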
